A study of Mus musculus with 6 samples.

Results

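The genes described here carry glucose into the cell and take it through glycolysis to pyruvate, lactate and the gate of the mitochondrion. They were chosen by name for these roles: Slc2a1, Slc2a3, Pfkl, Pfkp, Aldoa, Eno1, Pkm, Ldha, Slc16a1 and Pdk1, and all 10 were found among the 12149 genes of the deposited table. Messenger RNA was measured in 6 single mouse blastocysts of embryonic day 3.5 (C57BL/6 background), collected about 96 h after the zygotes had been injected with small RNAs of sperm at 2 ng/µl. For the 3 control embryos (Ctl) the donors of these RNAs were normal males, and for the other 3 (Dep) they were males in which stress had induced a depressive state, so both groups were injected and cultured. The labels give no uninjected embryos, nor do they tie embryos to parents, injection days or single donor males, so p-values measure the spread between these embryos. The purpose of the comparison, as far as the labels state it, is to set embryos that received sperm small RNAs of depressive fathers against those that received them from normal fathers.

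The early embryo lives first on pyruvate and lactate, and takes up glucose in quantity as it compacts and forms the blastocyst. Glucose enters through facilitative carriers of the Slc2a family, is phosphorylated by hexokinase and is committed to glycolysis by phosphofructokinase. Aldolase, enolase and pyruvate kinase act further down, lactate dehydrogenase turns pyruvate into lactate, and pyruvate dehydrogenase kinases hold pyruvate back from the mitochondrion. Several of these genes are textbook targets of the hypoxia-inducible factor, which binds a short core motif in promoters and enhancers.

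Whole reads in listed genes ranged from 16543356 to 21548220 per embryo. The embryo Dep 1 stood apart: 691 listed genes had 0 reads there, against 5 to 106 in the other embryos. The tissue label was checked against lineage markers, and all 8 markers of trophectoderm (the outer layer, which forms the placenta), all 7 of epiblast and all 7 of primitive endoderm were in the table. Summed trophectoderm markers ranged from 48663 to 73308 normalized counts in the Ctl embryos and from 42117 to 103407 in Dep. Summed epiblast markers ranged from 7045 to 10301 and from 5709.7 to 12769, and summed primitive endoderm markers from 19799 to 23046 and from 19530.2 to 25494. Dep 1 had the highest trophectoderm sum, the lowest epiblast sum and the highest primitive endoderm sum. The last of these was carried by Dab2, with 22085 normalized counts in Dep 1 against 12573 to 15562 elsewhere, while the primitive endoderm markers Gata4, Sox17 and Sox7 and the epiblast marker Fgf4 were at 0 there. Gata4 was at 0 in Ctl 3 as well. Of markers of other cells, 1 of 8 for cumulus and granulosa cells (Amhr2), 1 of 6 for oocyte (Zp3, at 0 in Dep 1), 1 of 6 for sperm (Prm1) and 0 of 5 for blood were analysed. Amhr2 had 59.3 to 75.9 normalized counts in the Ctl embryos and 34.0 to 199.6 in Dep, Zp3 11.5 to 125 and 0 to 112, and Prm1 4.17 to 24.9 and 19.9 to 48.6. A whole embryo is a mixture, so fewer cells of a type and less RNA per cell cannot be told apart in any value that follows.

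Promoters are shown for 4 of the genes: Ldha, which had the smallest unadjusted p, Slc2a1, for which Dep 1 lay below and the other Dep embryos above all of Ctl, Aldoa, which had the highest level for its length, and Pfkl, whose part among the phosphofructokinases separated the groups. Each line gives the 250 bases before the transcription start, 5′ to 3′ on the gene's strand, from RefSeq on GRCm38. Ldha (promoter 1) is at chr7:46845554-46845803 on the plus strand, Slc2a1 at chr4:119108495-119108744 on the plus strand, Aldoa (promoter 2) at chr7:126799255-126799504 on the minus strand and Pfkl at chr10:78009808-78010057 on the minus strand. Capitals mark the core of the hypoxia response element, ACGTG, its variant GCGTG, or their reverse complements CACGT and CACGC, with the E-box CACGTG, which contains the core on both strands, marked whole.
Ldha: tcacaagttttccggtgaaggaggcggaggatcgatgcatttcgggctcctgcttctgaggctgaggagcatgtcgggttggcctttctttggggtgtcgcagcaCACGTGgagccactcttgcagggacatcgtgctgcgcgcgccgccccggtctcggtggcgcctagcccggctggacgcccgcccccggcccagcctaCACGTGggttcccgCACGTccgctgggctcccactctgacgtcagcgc
Slc2a1: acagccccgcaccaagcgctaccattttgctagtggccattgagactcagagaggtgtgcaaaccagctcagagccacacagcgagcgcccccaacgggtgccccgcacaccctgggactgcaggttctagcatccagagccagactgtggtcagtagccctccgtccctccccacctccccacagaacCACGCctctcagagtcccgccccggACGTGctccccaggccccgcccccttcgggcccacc
Aldoa: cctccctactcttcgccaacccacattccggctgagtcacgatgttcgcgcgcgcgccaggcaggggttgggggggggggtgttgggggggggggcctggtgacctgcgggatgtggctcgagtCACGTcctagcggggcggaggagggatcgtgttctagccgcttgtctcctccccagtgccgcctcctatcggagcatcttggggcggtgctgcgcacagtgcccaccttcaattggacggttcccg
Pfkl: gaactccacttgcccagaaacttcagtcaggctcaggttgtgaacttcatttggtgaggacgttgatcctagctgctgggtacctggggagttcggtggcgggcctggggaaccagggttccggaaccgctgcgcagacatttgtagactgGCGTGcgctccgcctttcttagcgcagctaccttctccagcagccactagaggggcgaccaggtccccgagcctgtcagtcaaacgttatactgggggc
The Ldha sequence holds the core at 3 places, 145, 48 and 34 bases before the start, and the first and second of them are E-boxes. Slc2a1 holds it 36 bases and Aldoa 126 bases before the start, while the Pfkl sequence holds the variant alone. Of the promoters not shown, Ldha promoter 2 and Aldoa promoter 1 hold no core. Aldoa promoter 3 overlaps the one shown and holds the core 202 bases before its start. RefSeq listed 16 promoters for 9 of the genes, each taken from 250 bases before to 50 bases after the start. The core was in 6 of these 16 promoters on either strand (37.5%), against 19.6% of all 32851 mouse promoters of the same length. The variant was in 10 (62.5%, against 32.4%) and the E-box in 2 (12.5%, against 7.15%). Several promoters of 1 gene overlap, a match of letters is no evidence of binding, and no test was made of these shares.

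None of the genes passed the test of Dep against Ctl. By limma on log2(normalized count + 1), adjusted over all genes, 0 of the 10 passed the threshold of 0.05, as did 0.00% of the 12149 genes tested, and each of the 10 had adjusted p = 0.9997. At an unadjusted p under 0.05 limma again took 0 of the 10, against 1.85% of all genes. edgeR and DESeq2 on the recovered reads also called 0 of the 10, and each had 1 of them, Ldha, at an unadjusted p under 0.05. In 0 of the 10 did the 3 Dep embryos lie wholly above or below the 3 Ctl embryos, which 6.90% of all genes did. Of the 10, 8 had a lower and 2 (Pfkl and Pdk1) a higher mean log2 level in Dep, and a median log2 fold of -0.33. Over all genes the median was -0.02, as 6288 were lower and 5861 higher.

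**Figure D1:**
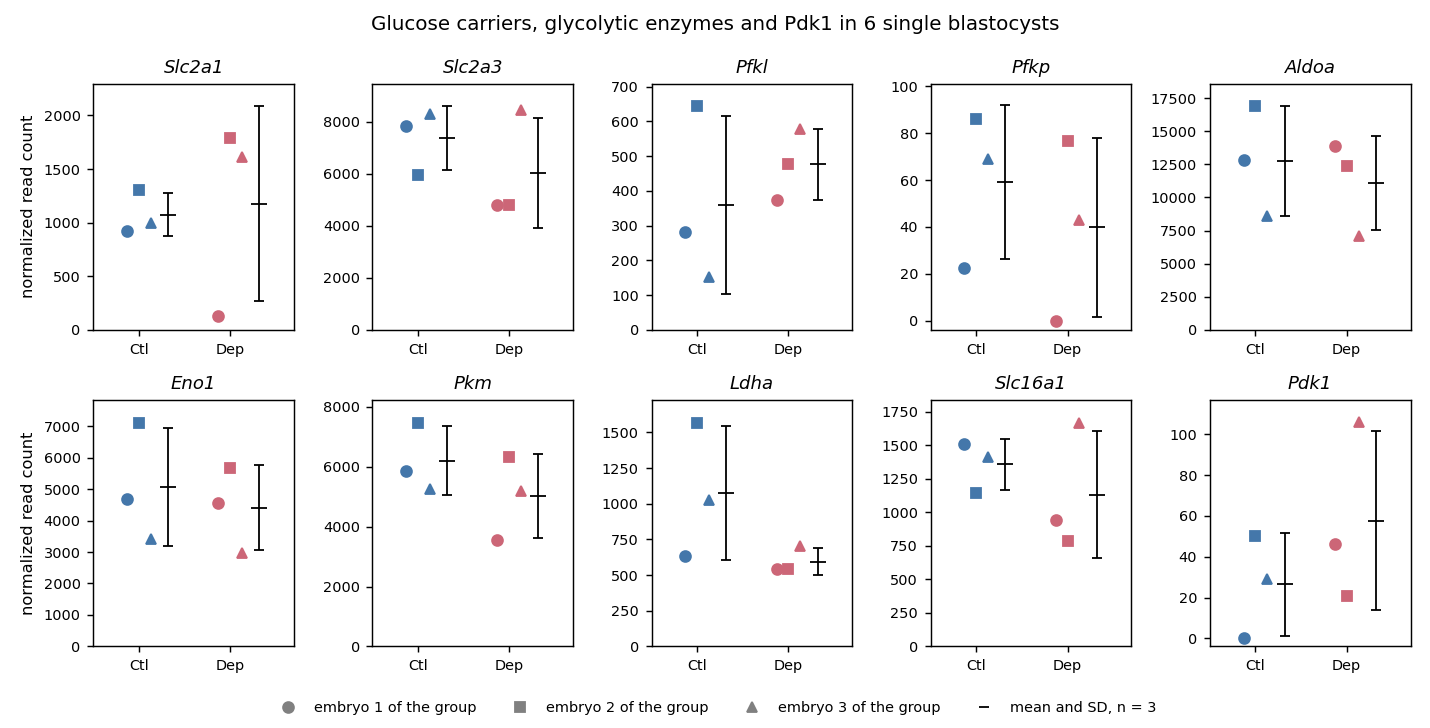
Normalized read count (vertical axis, linear, scaled per gene) of each of the 10 genes in the 3 Ctl and 3 Dep embryos; points are embryos, with symbols for the embryo's number, and bars give mean and SD (n = 3). Groups overlap for every gene, and Dep 1 lies far below the other embryos for Slc2a1, at 132.

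Glucose carriers come first along the route. Slc2a1 encodes GLUT1, a carrier for basal glucose uptake found in most cells (ENSMUSG00000028645, 12 merged exons on chromosome 4, 119108711 to 119137983, plus strand, GRCm38). It had 918, 1301 and 999 normalized counts in embryos 1 to 3 of Ctl, and 132, 1788 and 1614 in those of Dep. Dep 1 lay below every other embryo, and Dep 2 and Dep 3 above all 3 Ctl embryos. The means were 1073 ± 202 in the Ctl embryos and 1178 ± 909.9 in the Dep embryos (SD, n = 3 each), so the linear mean was higher in Dep, while the log2 fold was -0.55 ± 0.81 (SE; limma, unadjusted p = 0.517), with a 95% interval from -2.35 to 1.25. Without Dep 1 the log2 fold was 0.68 ± 0.30 (limma, unadjusted p = 0.0426, adjusted p = 0.987). In that fit 474 of the 12149 genes had an unadjusted p under 0.05 (limma). The Slc2a1 values of the groups then did not overlap, as in 19.4% of all genes without Dep 1. Slc2a1 and Pfkp were the 2 of the 10 genes whose Dep 1 value was at most 0.5 times that of the next lowest embryo, as it was in 13.2% of all genes.

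Of the 7 epiblast markers, 6 were lowest in Dep 1, as were 29.1% of all genes. The 7 had a mean log2 level of 6.78 there against 9.02 to 9.74 in the others. Fgf4, Esrrb and Tdgf1 were at most 0.5 times the next lowest embryo in Dep 1, while Nanog was at 90.8% of it and Pou5f1 was not lowest there. Primitive endoderm markers had a mean log2 level of 5.75 in Dep 1 and 6.23 in Ctl 3, against 9.05 to 10.1 in the remaining embryos. Slc2a1 had 999 normalized counts in Ctl 3. The part of these differences in the Slc2a1 values was not tested. Slc2a8, a carrier of intracellular membranes, put the 6 embryos in the same order: 897, 1185 and 1079 in Ctl, and 259, 1650 and 1506 in Dep, giving a log2 fold of -0.28 ± 0.61 (SE; limma, unadjusted p = 0.656).

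Slc2a3 encodes GLUT3, a carrier of high affinity that the blastocyst places on the outer face of the trophectoderm (ENSMUSG00000003153, chromosome 6, 122727809 to 122801640, minus strand). Its normalized counts were 7830, 5967 and 8314 in the Ctl embryos and 4819, 4799 and 8458 in Dep. Dep 1 and Dep 2 lay below all Ctl embryos and Dep 3 above them. The means were 7370 ± 1239 and 6025 ± 2107 (SD, n = 3 each), for a log2 fold of -0.33 ± 0.30 (SE; limma, unadjusted p = 0.298; 95% interval -1.0 to 0.34). Leaving out 1 embryo moved it between -0.60 (without Dep 3) and -0.19 (without Dep 2).

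Levels can be compared between genes only per length of exon. Slc2a3 averaged 924 normalized reads per kilobase of exon (662 to 1167 over embryos), Slc2a8 342 (80.6 to 514) and Slc2a1 321 (37.7 to 510.1). Among the 11829 genes with a known exon length, Slc2a3 was at percentile 88.8 and Slc2a1 at percentile 74.3. Of the summed level of Slc2a1, Slc2a3, Slc2a7 and Slc2a8, the carriers analysed here, Slc2a3 made up 66.1%, 52.4% and 62.3% in the Ctl embryos and 83.2%, 36.8% and 55.1% in Dep. It was the leading carrier in every embryo, and its share was both highest (Dep 1) and lowest (Dep 2) within the Dep group. The difference of the mean shares was -1.91 percentage points (two-sided exact permutation test, p = 1.0).

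Hexokinase traps glucose in the cell. Hk2, the inducible isozyme, had 2247 ± 45.2 normalized counts in the Ctl embryos and 2448 ± 943 in the Dep embryos (SD, n = 3 each). It made up 98.1%, 95.6% and 93.4% of the summed Hk1 and Hk2 level per kilobase in Ctl, and 99.4%, 84.3% and 95.7% in Dep, a difference of -2.52 points (exact permutation p = 0.9).

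Phosphofructokinase catalyses the committed step of glycolysis, as tetramers of liver (Pfkl), platelet (Pfkp) and muscle (Pfkm) type subunits. Pfkl (ENSMUSG00000020277, chromosome 10, 77986947 to 78010083, minus strand) had 282, 645 and 153 normalized counts in the Ctl embryos and 375, 477 and 579 in Dep. The Dep embryos lay between the highest and the lowest Ctl embryo. The means were 359.6 ± 255 and 477 ± 102 (SD, n = 3 each), for a log2 fold of 0.63 ± 0.52 (SE; limma, unadjusted p = 0.25; 95% interval -0.52 to 1.78). Without Ctl 3, the embryo with the lowest value, the log2 fold was 0.14, and without Ctl 2 it was 1.17.

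Pfkp (ENSMUSG00000021196, chromosome 13, 6579768 to 6648777, minus strand) was near the bottom of the table per kilobase of exon. It had 22.5, 86.0 and 68.8 normalized counts in the Ctl embryos and 0, 76.5 and 43.0 in Dep, or 19, 103 and 78 reads against 0, 77 and 51. The 0 reads of Dep 1 allow up to 3 reads, or 3.64 normalized counts, counting error alone. The log2 fold was -1.80 ± 1.62 (SE; limma, unadjusted p = 0.293), and it was 0.16 without Dep 1. Of its exon bases, 748 are shared with Pitrm1 on the other strand, a gene with a mean of 799 normalized counts against 49.5 for Pfkp. The library kit does not mark strand, so reads of these bases cannot be told apart. Pitrm1 had 1008 normalized counts in Dep 1, where Pfkp had 0. The part of Pitrm1 reads in the Pfkp counts was not tested.

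The share of Pfkl among the phosphofructokinase transcripts did not overlap between the groups, though it did not pass the test. The levels of the genes overlapped. Pfkl made up 47.5%, 60.0% and 42.0% of the summed level per kilobase of Pfkl, Pfkm and Pfkp in Ctl, and 66.8%, 69.7% and 70.2% in Dep. All Dep embryos thus lay above all Ctl embryos, and the Dep values lay within a narrow range. The means were 49.8% ± 9.21 and 68.9% ± 1.88 (SD, n = 3 each), a difference of 19.1 percentage points with exact permutation p = 0.1 (two-sided), or 0.5 adjusted over the 5 families tested. In the other 4 families the share of the leading gene overlapped between the groups. No p below 0.1 is possible in this design of 3 embryos per group. Any share without overlap has this p, so a share separates the groups by random labels with probability 0.1. Levels did not overlap in 6.90% of all genes, and shares were tested in these 5 families alone. Without Dep 1 the difference was 20.2 points, and without Ctl 2 it was 24.2. As the groups do not overlap, leaving out an embryo could not reverse the direction.

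The other side of this share was Pfkm (ENSMUSG00000033065, chromosome 15, 98092589 to 98132451, plus strand). It had 150.3, 194 and 88.3 normalized counts in the Ctl embryos and 93.5, 84.4 and 112 in Dep, giving a log2 fold of -0.51 ± 0.58 (SE; limma, unadjusted p = 0.398). Its share was 50.6%, 36.0% and 48.5% in Ctl against 33.2%, 24.7% and 27.2% in Dep. This share and the ratio below use the same reads as the Pfkl share, so they are no separate result. The ratio of Pfkl to Pfkm normalized counts, which does not depend on the scaling of a library, was 1.87, 3.33 and 1.73 in the Ctl embryos and 4.01, 5.65 and 5.17 in Dep. These ratios rest on 238, 772 and 173 Pfkl reads over 127, 232 and 100 Pfkm reads in Ctl, and on 309, 480 and 687 over 77, 85 and 133 in Dep. Of the 3340 exon bases of Pfkm, 359 overlap Senp1 or Gm26513.

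**Figure D2:**
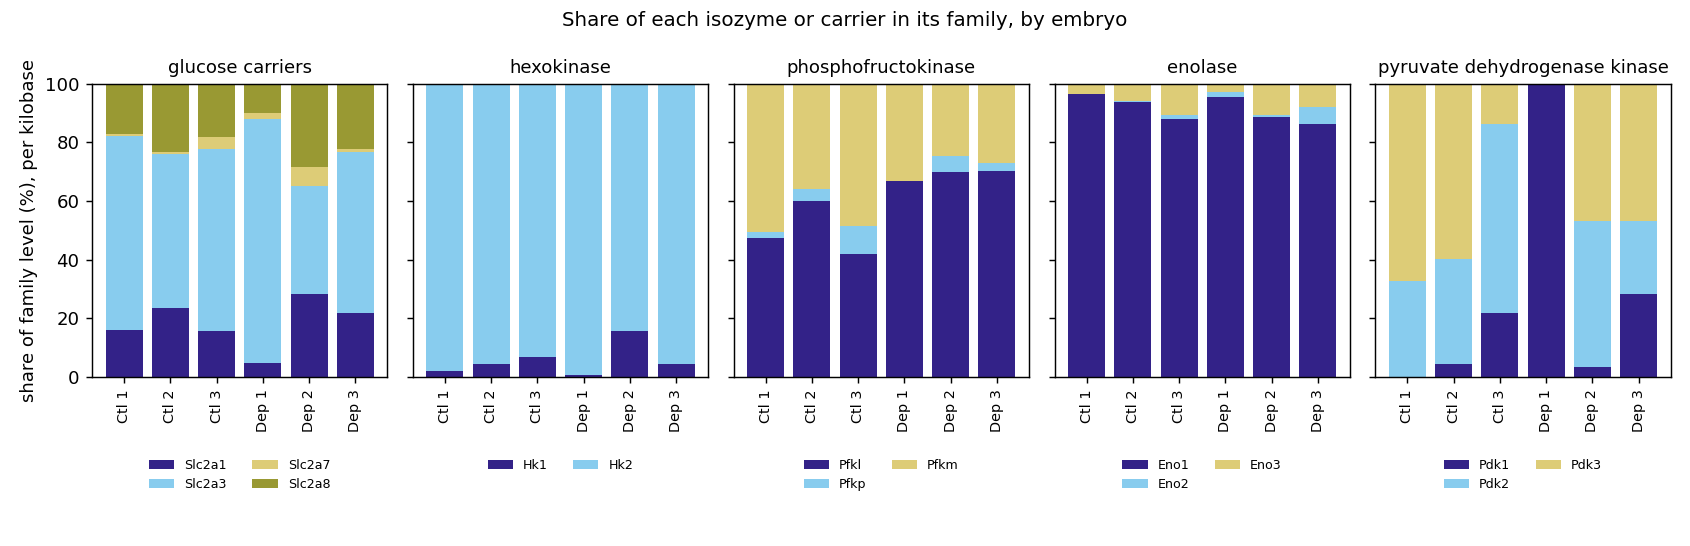
Share (%, vertical axis) of each isozyme or carrier in the summed level per kilobase of its family, 1 bar per embryo, for the 5 families with more than 1 gene analysed. Pfkl takes 42.0% to 60.0% of the phosphofructokinase bar in the Ctl embryos and 66.8% to 70.2% in Dep, and Eno1 takes at least 86.1% of enolase in each embryo.

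Enzymes further down the route differed in level, from 4099 normalized reads per kilobase for Aldoa to 252 for Ldha, with the carrier Slc2a3 between them at 924. Aldoa, the aldolase that splits fructose bisphosphate (ENSMUSG00000030695, chromosome 7, 126795234 to 126800751, minus strand), had 12799, 16881 and 8565 normalized counts in the Ctl embryos and 13850, 12381 and 7122 in Dep. Embryo 3 was the lowest of each group, and the ranges overlapped. The log2 fold was -0.20 ± 0.35 (SE; limma, unadjusted p = 0.581; 95% interval -0.98 to 0.58). At 4099 normalized reads per kilobase Aldoa was at percentile 97.8, the highest of the 10 genes and next to 4002 for Gapdh, the dehydrogenase that follows it. It was the sole aldolase analysed here.

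Eno1, the enolase of most tissues (ENSMUSG00000063524, chromosome 4, 150236721 to 150248879, plus strand), had 4675, 7112 and 3421 normalized counts in the Ctl embryos and 4569, 5658 and 2982 in Dep. Its embryos fell in the same pattern as those of Aldoa within Ctl, and embryo 3 was again the lowest of each group. The log2 fold was -0.19 ± 0.34 (SE; limma, unadjusted p = 0.597). Eno1 shares 23.0% of its 75-base stretches with other genes, mainly Eno1b and the pseudogene Gm4735, so its reads could be split among copies. Gm4735 was listed at a mean of 48.0 normalized counts, 1.01% of Eno1. Among Eno1, Eno2 and Eno3, Eno1 made up 96.5%, 93.7% and 87.8% in the Ctl embryos and 95.4%, 88.5% and 86.1% in Dep (difference -2.64 points, exact permutation p = 0.6). That difference was from -5.34 (without Dep 1) to -0.70 (without Dep 3) with 1 embryo left out.

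Pkm, the pyruvate kinase of muscle and most proliferating cells (ENSMUSG00000032294, chromosome 9, 59656368 to 59679375, plus strand), had 5870.3, 7474 and 5267 normalized counts in the Ctl embryos and 3554, 6322 and 5204 in Dep. Dep 1 was the lowest embryo and Ctl 2 the highest. The log2 fold was -0.33 ± 0.29 (SE; limma, unadjusted p = 0.287; 95% interval -0.97 to 0.32). It was -0.10 without Dep 1, -0.19 without Ctl 2 and -0.51 without Dep 2. Its level of 1123 normalized reads per kilobase was at percentile 90.8. The table gives 1 value for the gene, so the M1 and M2 splice forms cannot be told apart, and 17.8% of its 75-base stretches recur in other genes, mainly Gm49759 and Gm6560.

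Ldha encodes the lactate dehydrogenase subunit that favours lactate formation (ENSMUSG00000063229, chromosome 7, 46841475 to 46855627, plus strand). Its normalized counts were 634, 1569 and 1023 in the Ctl embryos and 541.5, 541.2 and 703 in Dep. Dep 1 and Dep 2 lay below every Ctl embryo and Dep 3 lay above Ctl 1, so the groups overlapped by 1 embryo on each side. Between embryos of the same number, Dep was the lower in 3 of 3 pairs. The means were 1075 ± 469 and 595 ± 93.2 (SD, n = 3 each), for a log2 fold of -0.77 ± 0.37 (SE; limma, unadjusted p = 0.0658; 95% interval -1.60 to 0.06), the smallest p among the 10. In the authors' deposited table the log2 fold was -0.85, with p = 0.0357 and an adjusted p of 0.9999. For each of the 10 genes the deposited log2 fold and p equal those of DESeq2 on the recovered reads, so these are 1 result. Without Ctl 2, the embryo with the highest value, the log2 fold was -0.45, and without Ctl 1 it was -1.10. No other lactate dehydrogenase gene was analysed here.

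Slc16a1 encodes MCT1, a carrier that moves lactate and pyruvate with a proton (ENSMUSG00000032902, chromosome 3, 104638668 to 104658462, plus strand). It had 1514, 1144 and 1415 normalized counts in the Ctl embryos and 944.5, 784 and 1670.1 in Dep. As for Slc2a3, Dep 1 and Dep 2 were below the Ctl embryos and Dep 3 above them. The log2 fold was -0.33 ± 0.34 (SE; limma, unadjusted p = 0.35), and it was -0.10 without Dep 2 and -0.65 without Dep 3. Bsg, the membrane partner that MCT1 needs to reach the cell surface, stood far higher, at 10318 normalized reads per kilobase against 281 for Slc16a1, and had a log2 fold of 0.16 ± 0.32 (SE; limma, unadjusted p = 0.635).

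Pdk1 encodes a kinase that switches off pyruvate dehydrogenase (ENSMUSG00000006494, chromosome 2, 71873224 to 71903858, plus strand), and it was the second lowest of the 10 per kilobase, at 5.41. It had 0, 50.1 and 29.1 normalized counts in the Ctl embryos and 46.1, 20.9 and 106 in Dep. The 0 reads of Ctl 1 allow up to 3 reads, or 3.55 normalized counts. The log2 fold of 2.05 ± 1.60 (SE; limma, unadjusted p = 0.227) was 0.29 without Ctl 1. It was 1.12 in the authors' deposited table, the same value as by DESeq2 on the recovered reads. Pdk2 and Pdk3 were both at 0 in Dep 1, where Pdk1 had 38 reads and so made up the whole of the kinase level. In the other embryos Pdk1 made up from 0% to 28.2%, and Pdk3, the leading kinase on average, differed by -15.8 points between the groups (exact permutation p = 0.5), with -0.12 without Dep 1 and -32.3 without Ctl 3.

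**Figure D3:**
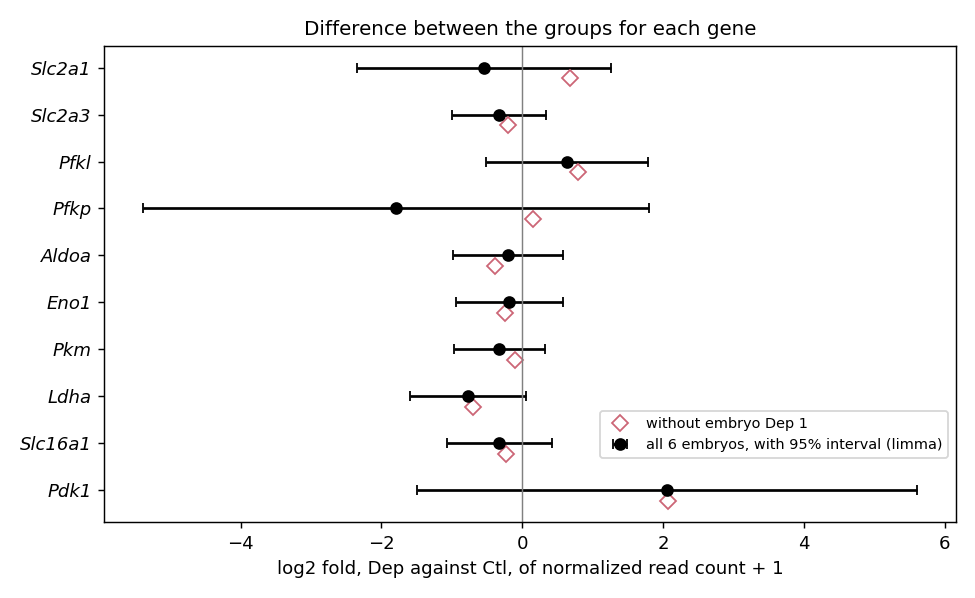
Log2 fold of Dep against Ctl (horizontal axis) for each gene; filled points with bars give the limma estimate with its 95% interval over 6 embryos, and open diamonds the estimate without Dep 1. Each interval includes 0, and Slc2a1 moves from -0.55 to 0.68 without Dep 1.

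The embryos did not rank alike over the 10 genes. Ctl 2 was the highest embryo for 6 of them (Pfkl, Pfkp, Aldoa, Eno1, Pkm and Ldha), while Dep 3 was the highest for Slc2a3, Slc16a1 and Pdk1 and Dep 2 for Slc2a1. Dep 1 was the lowest for 3 (Slc2a1, Pfkp and Pkm, or 30.0%, against 29.1% of all genes), Dep 2 for 3 (Slc2a3, Ldha and Slc16a1) and Dep 3 for 2 (Aldoa and Eno1). Embryo 3 was the lowest of both groups for 2 of the 10 and for 3 of the 12 other glycolysis enzymes analysed here (Gpi1, Gapdh and Pgk1), against 15.1% of all genes. Of those 12, Ctl 2 was the highest embryo for Gpi1, Pfkm and Gapdh, and a Dep embryo was the highest for each of the rest. The share of all genes that were highest in Ctl 2 was not computed. Between embryos of the same number, Dep was the lower in all 3 pairs for 4 of the 10 genes (Pfkp, Eno1, Pkm and Ldha), while 25.2% of all genes had 1 direction, up or down, in all 3 pairs. With the number as a block Ldha had an unadjusted p of 0.0470 and an adjusted p of 0.941 (limma). Within Dep, Aldoa was lowest in the embryo where Slc2a3 and Slc16a1 were highest.

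Per kilobase of exon, Aldoa led at 4099 normalized reads (2447 to 5799 over embryos), above every value of the other 9 genes. Pkm (1123), Slc2a3 (924) and Eno1 (880.5) followed, with ranges over embryos that overlapped one another. Slc2a1 (321), Slc16a1 (281) and Ldha (252) formed the next overlapping set, ahead of Pfkl at 62.7, whose highest embryo lay above the Dep 1 value of Slc2a1. Pdk1 and Pfkp were lowest, at percentiles 1.91 and 0.778 of the genes with a known exon length, and could not be ordered beyond their spread.

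The other 12 enzymes of glycolysis showed 4 higher and 8 lower values in Dep, 0 called, and a median log2 fold of -0.06. Gapdh, the highest of them per kilobase, had 17004, 22075 and 9269.7 normalized counts in the Ctl embryos and 21338, 20144 and 9418 in Dep, giving a log2 fold of 0.07 ± 0.41 (SE; limma, unadjusted p = 0.863). Embryo 3 was the lowest in each group, as for Aldoa and Eno1. Tpi1, which links the products of aldolase, had 10245 normalized counts in Dep 1 against 2331 to 5686 in the other embryos. Eno2, the neuronal enolase, had 25.5 ± 22.9 in the Ctl embryos and 97.7 ± 71.9 in Dep, with 1.18 in Ctl 1, and the largest log2 fold of the list (2.50 ± 1.31 SE; limma, unadjusted p = 0.0844). Pfkm, described above, had the lowest log2 fold.

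Genes that set the level of fructose bisphosphates numbered 6 (3 higher and 3 lower in Dep, 0 called). Fbp2, a fructose bisphosphatase known from muscle, had 4900 normalized reads per kilobase, above Aldoa, and 6967 ± 2884 normalized counts in Ctl against 7429 ± 3277 in the Dep embryos (SD, n = 3 each). Pfkfb1 had the largest positive log2 fold, 0.68 ± 0.55, and Fbp1, the liver fructose bisphosphatase, the largest negative one, -0.92 ± 0.64 (SE; limma, unadjusted p = 0.239 and 0.176).

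Among the 4 other genes of lactate and pyruvate carriage, 3 were higher and 1 lower in Dep, and a median log2 fold of 0.19. The subunits of the mitochondrial pyruvate carrier had opposite signs: Mpc1 had 1149 ± 127 normalized counts in the Ctl embryos and 935 ± 153 in Dep, and Mpc2 1382 ± 229 and 1725 ± 805 (SD, n = 3 each). Of pyruvate dehydrogenase, its kinases and phosphatases, 7 of 11 were higher and 4 lower, with a median of 0.08. Pdhb, a subunit of the complex, had 4876 ± 1022 and 5409 ± 1475 normalized counts, Pdp1, a phosphatase that switches it on, the largest log2 fold (2.33 ± 1.58 SE) and Pdk2 the lowest (-1.85 ± 1.67 SE). Neither of these folds passed the test, and both genes had an embryo at 0.

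**Figure D4:**
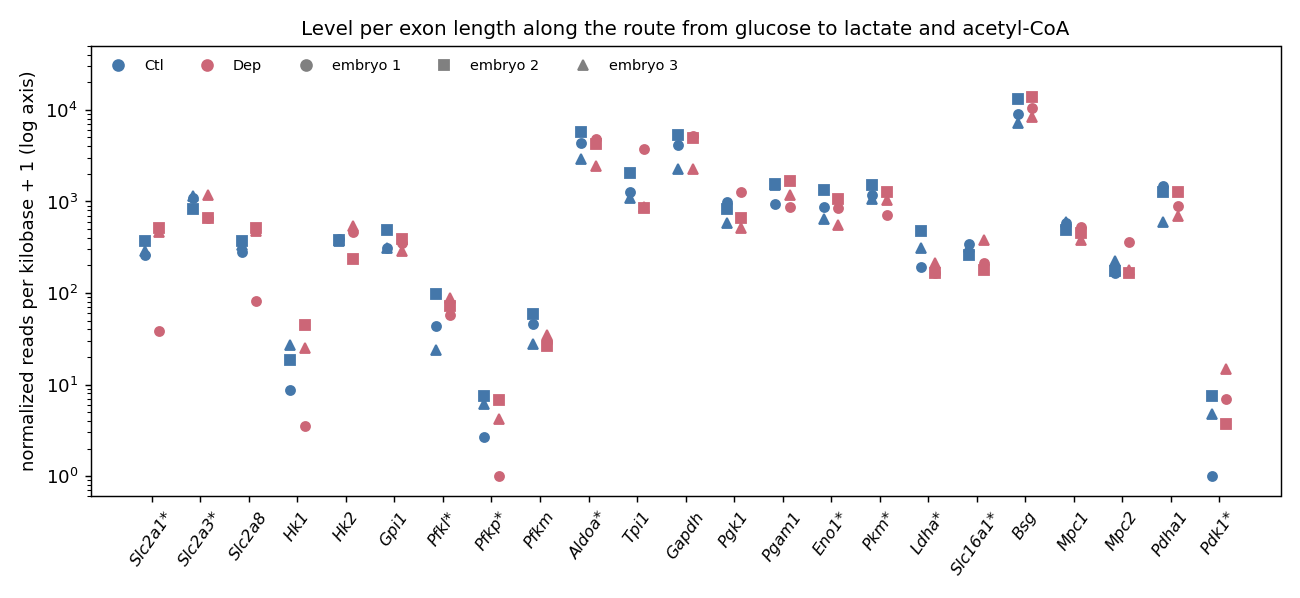
Normalized reads per kilobase of exon plus 1 (vertical axis, log scale) for genes in the order from glucose carriers to pyruvate dehydrogenase, 1 point per embryo; an asterisk marks the 10 genes described. Aldoa and Gapdh average 4099 and 4002, and Pfkp and Pdk1 3.69 and 5.41, the low end of the route.

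Genes known to regulate this route also held no call. The hypoxia factor and its regulators (8 genes) showed 2 higher and 6 lower values in Dep and a median log2 fold of -0.10. Egln1, the main oxygen-sensing prolyl hydroxylase, had 8318 ± 950.7 normalized counts in the Ctl embryos and 8087 ± 2789.9 in the Dep embryos (SD, n = 3 each), Egln2 a log2 fold of 0.11 and Egln3 one of -2.54 ± 1.54 (SE), with 0 normalized counts in Dep 1. Of 15 regulators of glucose use, 4 were higher and 11 lower, with a median of -0.06. Rheb, the activator of mTOR, had the highest level, Mlx, a partner of the glucose-sensing factors, the largest log2 fold (0.64 ± 0.42 SE), and Mlxipl, a glucose-sensing factor itself, the lowest (-1.51 ± 1.68 SE). Over all 93 other genes of the pathway lists, 37 were higher and 56 lower, and a median log2 fold of -0.09. limma called 0 of them and took 2 at an unadjusted p under 0.05 (1.85% of all genes), and 3 of them had groups that did not overlap (6.90% of all genes).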

How the data were processed

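Single blastocysts were lysed, and reverse transcription used the SMART-Seq v4 kit, per the labels' protocols. HISAT2, Cufflinks 2.2.1 and mm10 appear, without their roles, in the submitters' processing notes, and for the counting program nothing is given in the sources used here. The signal that the authors deposited is a normalized count for each gene and library, as its steps show the reads over the library's size factor. Whole reads were recovered for 100% of values within 0.01. In Dep 2, 1 read is worth 0.993, so its reading rests on its likeness to the other columns. The lowest mean in the table is 14.2. Per the file headers, the authors also deposited a score (their test statistic), raw and adjusted p-values and a log2 fold with its error.

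limma 3.58.1 (R 4.3.3) with a mean-variance trend was fitted to log2(normalized count + 1) over all genes, with Benjamini-Hochberg adjustment and a threshold of 0.05. On this scale the pseudocount shapes the folds of low genes, above all those with an embryo at 0. edgeR 4.0.16 and DESeq2 1.42.0 were run on recovered reads. Gene names, exon lengths and coordinates were read from GENCODE M21 (GRCm38, the assembly of mm10), which matched 11829 of 12149 identifiers. A length is the union of a gene's exons. Family shares were compared by two-sided exact permutation tests over embryos (Python 3.11.15). Intervals and floors of 3 reads cover counting error or embryo spread alone, as no molecular identifiers are described.

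Besides the 10 genes, the highest level and both extreme folds of each pathway list are named. Tpi1 and the genes that share reads with them were added after their values were seen. The genes and lists were chosen by name and role, with earlier results of these data known. Deviations from the group means correlated weakly between embryos of the same number, with r = 0.133, 0.151 and 0.129. As deviations sum to 0 within a group, these values are not independent, and no chance level was computed for them. Embryos of the same number were treated as pairs in an alternative fit, though the labels state no pairing. The other alternatives and their effect are given in the closing section.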

Additional observations from a re-analysis of the deposited data

How the results depend on the processing

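Over 16 other settings, 158 log2 folds of the 10 genes were recomputed: 149 kept their direction, 9 did not, and 6 genes had 1 direction throughout. With a minimum mean of 100 only 8 of the 10 were tested, as Pfkp and Pdk1 lay below it. The fits without the trend, with the replicate block and with a minimum mean of 100 leave each log2 fold that they cover unchanged. Their directions were thus kept by construction and are no sign of stability. None of the genes tested among the 10 passed the threshold in any of the 16 settings (smallest adjusted p = 0.838, by limma, edgeR or DESeq2), while DESeq2 called 1 gene of the whole table. With the replicate block (paired embryos) 0 of the 10 genes were called. In this balanced design the block cannot move a log2 fold, only its error. With the block 420 of all genes had an unadjusted p under 0.05 (limma), against 225 without it. The median log2 fold of those of the 10 genes that were tested ranged from -0.33 to -0.21 over settings with all embryos and from -0.49 to -0.15 with 1 embryo left out.

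Slc2a1 changed direction with library weights (0.24), edgeR (0.14) and DESeq2 (0.14), and ranged from -1.19 to 0.68 with 1 embryo left out. In such fits Pfkp ranged from -2.98 to 0.16 (above 0 without Dep 1), Aldoa from -0.46 to 0.093 and Eno1 from -0.44 to 0.090 (both above 0 without Ctl 2 or Dep 3). The share of Slc2a3 ranged from -14.3 to 8.86 points and that of Hk2 from -5.67 to 1.90, that of Eno1 from -5.34 to -0.70 (and -0.60 with isozymes of mean 100 or more) and that of Pdk3 from -32.3 to -0.12. The cause was not tested. The Pfkl share differed by 15.2 to 24.2 points with 1 embryo left out, 17.6 without division by length and 18.5 with isozymes of mean 100 or more. As its groups do not overlap, leaving out an embryo could not reverse its direction, so this is no sign of stability. For Pfkp and Pdk1 the read number limits the fold: -0.57 and 1.12 by DESeq2, -0.81 and 1.03 with a pseudocount of 10, -2.12 and 2.38 with 0.5.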

Other observations

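Side routes of glucose were measured in the same embryos. Of 10 genes of glycogen metabolism, 5 were higher and 5 lower in Dep (median log2 fold -0.06), and in 2 of them the groups did not overlap, as in 6.90% of all genes. Pygm, the muscle glycogen phosphorylase, had 27.2, 14.2 and 0 normalized counts in the Ctl embryos and 163, 92.4 and 75.8 in Dep, giving a log2 fold of 3.81 ± 1.37 (SE; limma, unadjusted p = 0.0189, adjusted p = 0.9997). Gbe1, the branching enzyme, had 271, 100.2 and 254 in the Ctl embryos and 88.6, 43.7 and 95.2 in Dep, giving a log2 fold of -1.40 ± 0.64 (SE; limma, unadjusted p = 0.0534, adjusted p = 0.9997). Ugp2, which makes the UDP-glucose for glycogen, was the highest of the list per kilobase, with a log2 fold of 0.06 and 7889 normalized counts in Dep 1 against 2092 to 4528 elsewhere.

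Of 6 genes of the hexosamine route, 2 were higher and 4 lower (median log2 fold -0.05). Ogt, the transferase that puts GlcNAc on proteins, had 4469, 3849.8 and 3223 normalized counts in the Ctl embryos and 2151, 2959 and 3056 in Dep (log2 fold -0.50 ± 0.27 SE; limma, unadjusted p = 0.0875). In 1 of the 6 genes, Ogt, the groups did not overlap, as in 6.90% of all genes. Gnpnat1 had the highest level and a log2 fold of -0.09, and Gfpt2 had the largest log2 fold, 1.28 ± 1.04 (SE). In the pentose phosphate route 3 of 8 genes were higher and 5 lower (median -0.21), from Tkt at 0.35 to H6pd at -0.94, with Taldo1, the most abundant, at -0.11.

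Of 12 genes known to respond to hypoxia outside glycolysis, 4 were higher and 8 lower (median log2 fold -0.24). Ndrg1 had 3232, 1905 and 1105 normalized counts in the Ctl embryos and 1044, 500.5 and 1265 in Dep (log2 fold -1.12 ± 0.45 SE; limma, unadjusted p = 0.0320, adjusted p = 0.9997). Bnip3, the most abundant of them per kilobase, had a log2 fold of -0.29, and Car9, with the largest, 0.48. No gene of these lists was called.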
